A study of Mus musculus with 13 samples.

Results

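The comparison described here sets Villus, the differentiated epithelium of the mouse small intestine, against GFP_Low, the close descendants of the Lgr5-positive stem cells. It used 6 of the 13 arrays of the study, chosen by their titles: 3 Villus arrays and 3 intestinal GFP_Low arrays. All 6 came from C57BL/6 mice that carry the Lgr5-EGFP-ires-CreERT2 allele, in which a GFP and an inducible Cre recombinase are read from the Lgr5 locus. No age, sex or treatment with an inducer was given, so every group shared the knock-in allele and none was a wild type control. GFP_Low cells were released from crypts with trypsin and sorted for dim GFP, and Villus cells came from villus epithelium detached with EDTA. The methods state that RNA was isolated after sorting, without naming a gate for Villus. The Lgr5 level field of the labels read "high" for all 3 Villus arrays and for GFP_Low 2 and GFP_Low 3, against the titles and the data below, and it was not used.

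The small intestinal epithelium renews itself continually. Stem cells at the crypt base give rise to dividing progenitors, which leave the cell cycle and move onto the villus as absorptive enterocytes or as goblet, enteroendocrine and tuft cells. Paneth cells stay at the crypt base. Villus cells therefore hold the end products of differentiation, and dim GFP marks cells that have inherited the reporter protein a short time before.

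The Affymetrix HT MG-430 PM array read the RNA, and values are given as normalized intensities, in arbitrary units. Of 86 probe sets for olfactory, vomeronasal and taste receptors, which the intestine is not known to use broadly, 95% lay below an intensity of 7.9, called the receptor level below. Where the mean of 1 group did not pass that level, a difference is given as "at least" a fold, measured against it. Levels were compared between arrays and not between genes. Pearson correlations of log2 intensities, over the probe sets read for the 17097 genes, were 0.987 to 0.992 within Villus, 0.983 to 0.991 within GFP_Low and 0.870 to 0.891 between the groups. Of 17097 genes tested with limma, 7202 (42.1%) differed at an adjusted p under 0.05, of which 3558 (20.8% of genes) were higher and 3644 (21.3%) lower in Villus. Centring each array on its median moved the median difference of all genes by 0.19 on the log2 scale and put 62.3% of the called genes on the higher side, against 49.4% without it. At a log2 difference of 2 or more, 1615 genes (9.45%) were called, 772 (4.52%) higher and 843 (4.93%) lower. The arrays of the 2 groups did not overlap for 8545 genes (50.0%), with Villus above for 25.3% and below for 24.7% of genes. A difference in a bulk sample can come from fewer cells of a type or from less RNA per cell, and these cannot be told apart here.

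The defining markers followed the titles. Enpp3, an ectonucleotide pyrophosphatase of the enterocyte surface, had intensities of 2401, 2928 and 2862 in Villus 1 to 3, against 10.8, 25.0 and 16 in GFP_Low 1 to 3, a log2 difference of 7.38 ± 0.23 (SE, adjusted p = 3.44e-11). Apoa4, an apolipoprotein of intestinal lipoproteins, had 8584, 8183 and 8643 in Villus and 147.5, 417.6 and 226.3 in GFP_Low. Krt20, a keratin of differentiated intestinal epithelium, had 6453, 6482 and 6209 in Villus and 456.6, 458.1 and 649.9 in GFP_Low. All 3 were higher in every Villus array, and Apoa4 and Krt20 were far above the receptor level in GFP_Low as well. Top2a, the DNA topoisomerase of dividing cells, had 6.2, 15.7 and 10.8 in Villus and 373.8, 521.2 and 472.0 in GFP_Low, and fell by 5.47 ± 0.67 on the log2 scale (adjusted p = 1.12e-05). Of its 3 probe sets, the others were dimmer and not called, at −0.622 and 0.125. Neurog3, the transcription factor that commits progenitors to the enteroendocrine lineage, had 3.8, 4.0 and 4.8 in Villus and 242.1, 123.5 and 205.8 in GFP_Low. It was at least 23.2-fold lower in Villus (adjusted p = 1.77e-08), with no Villus array above the receptor level. Lgr5 itself had 6.8, 4.8 and 6.6 in Villus, none above the receptor level, and 12.6, 66.1 and 14 in GFP_Low. It was at least 2.87-fold lower in Villus (adjusted p = 0.00353). GFP_Low 2 lay above the other arrays of its group, and without that array it was at least 1.68-fold lower. The call was lost with an offset of 16 added before the logarithm (adjusted p = 0.0559) and with the methods' t-test (unadjusted p = 0.0719, adjusted p = 0.155). Another Lgr5 probe set, with both group means below the receptor level, was not called.

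**Figure D1:**
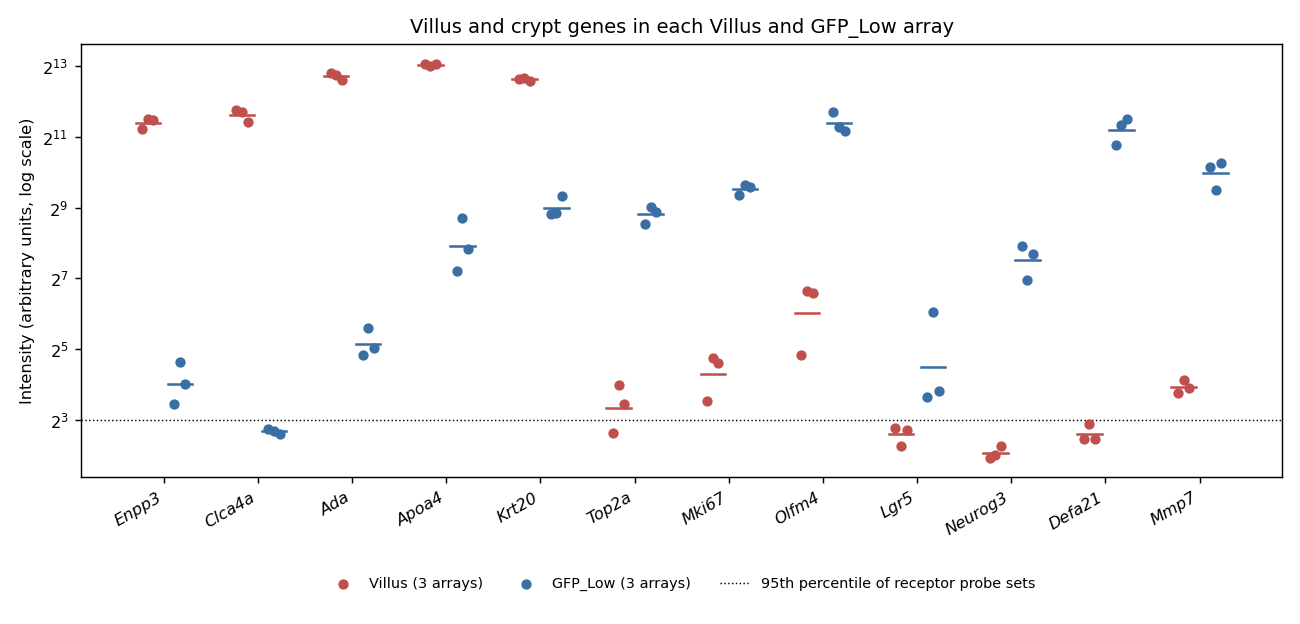
Intensity (log scale) of 12 genes in each of the 3 Villus arrays (red, left of each pair) and 3 GFP_Low arrays (blue, right), with a bar at the mean of the log2 values and a dotted line at the receptor level of 7.9. The red and blue points of each gene do not overlap, and Lgr5 shows GFP_Low 2 at 66.1 above 12.6 and 14.

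The plot of the gene lists places each list by the median difference of its members, and the groups are taken up below from the cell cycle to the mature cell types. Counts of called members are to be read beside the shares of all genes, 20.8% higher and 21.3% lower in Villus.

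**Figure D2:**
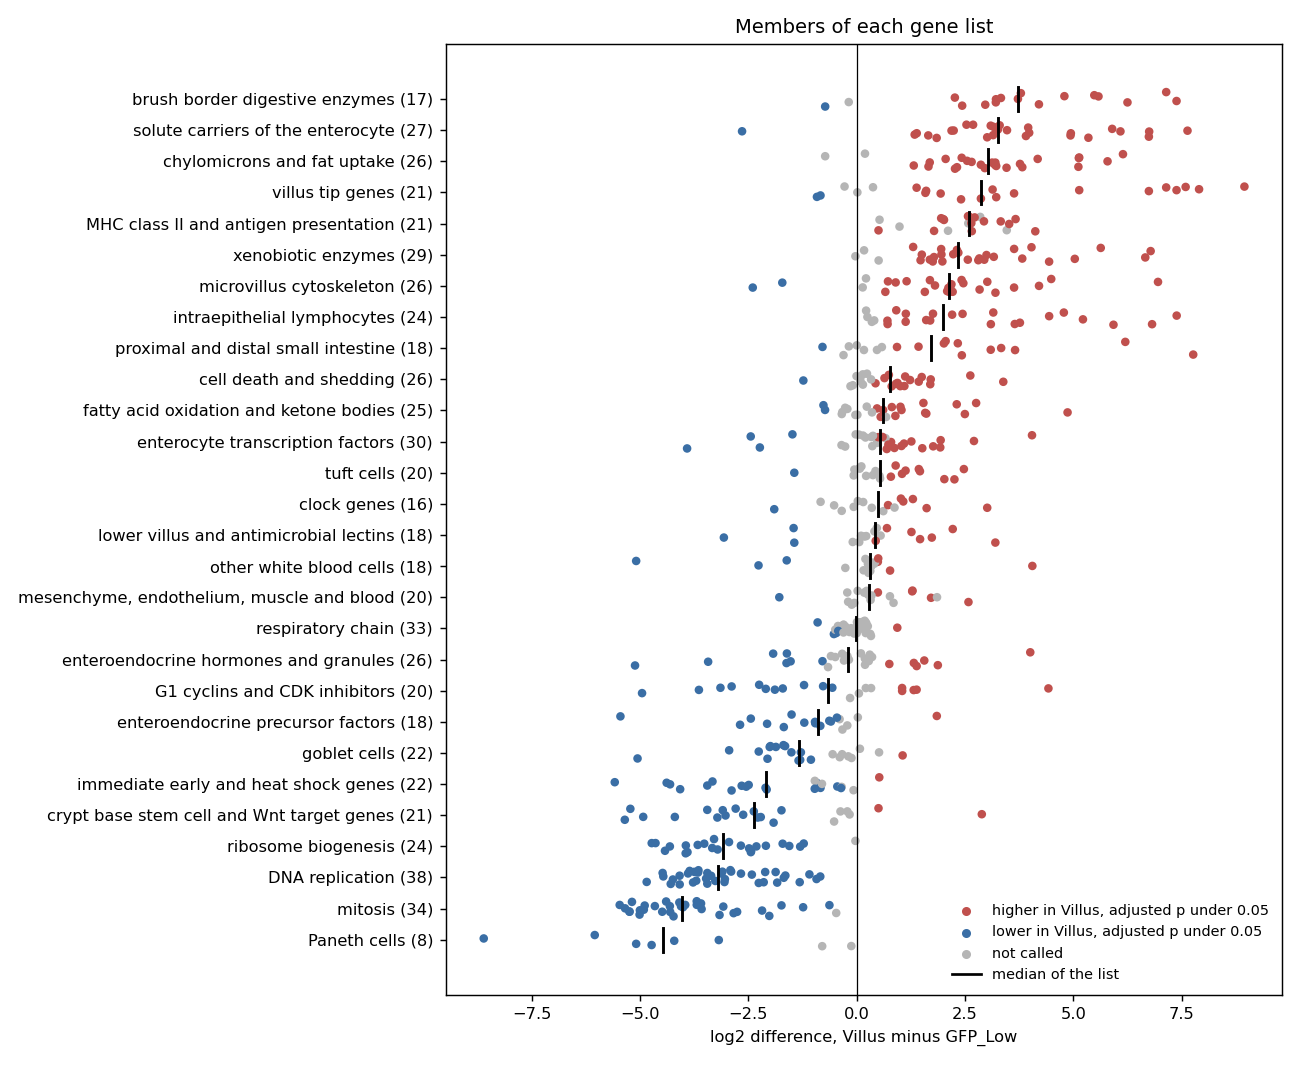
Each point is the log2 difference, Villus minus GFP_Low, of 1 gene (red higher, blue lower, grey not called at an adjusted p of 0.05), in 28 lists with the number of measured genes in parentheses and a black bar at the list's median. Brush border enzymes lie at the top with a median of 3.72 and Paneth cell genes at the bottom with −4.47, while respiratory chain genes centre on −0.01.

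Genes of cell division were low in Villus almost without exception. Of 34 measured genes of mitosis, 33 were lower and 1 was not called, with a median log2 difference of −4.03, or −3.79 with the 13 genes below the receptor level in Villus set at their bound, against 0.02 over all genes. Cdk1, the kinase that drives entry into mitosis, had 7.1, 16.6 and 15.7 in Villus and 498.9, 539.6 and 464.4 in GFP_Low, a difference of −5.35 ± 0.69. Mki67, a proliferation antigen, had 11.6, 27.0 and 24.2 in Villus against 663.5, 800.3 and 776.5 in GFP_Low. Both genes were lowest in Villus 1. Cenpa, the histone H3 variant of the centromere, was at least 30.5-fold lower in Villus, and Nusap1, a protein of the mitotic spindle, at least 24.7-fold. Cks1b, a subunit that binds cyclin-dependent kinases, and Pbk, a mitotic kinase, were among the 15 genes with the largest differences on the lower side, at −5.59 ± 0.36 and −5.55 ± 0.75 on the log2 scale.

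Mitotic genes of mammals are known to share 2 short promoter elements, the cell cycle genes homology region (CHR), searched as TTTGAA, and the CCAAT box, searched as CCAAT, both on either strand. Windows of 250 bases before the start of RefSeq genes (GRCm38.p6) were matched for 28 of the 34 genes, in 30 windows. CHR letters stood in 12 of them (40.0%), against 16% of 32851 windows of all genes, and CCAAT letters in 24 (80%), against 33.8%. CCAAT letters stood also in 55.0% of the DNA replication windows, 52.6% of those of brush border enzymes, 34.5% of those of solute carriers and 39.1% of those of fat uptake genes. With 150 bases the shares were 36.7% and 80%, against 9.07% and 24.5%. The letters of the 2 motifs do not contain each other. The windows of the 3 mitotic genes with the largest differences that held both motifs are shown, trimmed to the stretch that holds the matches, to place these letters before the genes just described, with each CHR or CCAAT match, on either strand, in capitals. They lie at chr11:99024190-99024436, minus strand (Top2a), chr10:69352913-69353140, minus strand (Cdk1) and chr7:135716452-135716587, minus strand (Mki67), and are written 5′ to 3′ along the gene. A match in these letters is a description of the sequence and not a measured binding site.
Top2a: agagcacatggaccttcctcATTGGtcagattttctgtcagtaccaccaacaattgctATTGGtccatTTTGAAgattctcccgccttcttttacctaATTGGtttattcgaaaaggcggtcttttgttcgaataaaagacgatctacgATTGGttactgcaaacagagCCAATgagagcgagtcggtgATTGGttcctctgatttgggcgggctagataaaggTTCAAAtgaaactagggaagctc
Cdk1: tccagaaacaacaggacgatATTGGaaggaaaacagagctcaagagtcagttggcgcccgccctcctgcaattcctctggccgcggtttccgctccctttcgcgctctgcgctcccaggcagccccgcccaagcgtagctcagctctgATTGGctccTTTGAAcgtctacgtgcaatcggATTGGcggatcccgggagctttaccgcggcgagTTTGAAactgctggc
Mki67: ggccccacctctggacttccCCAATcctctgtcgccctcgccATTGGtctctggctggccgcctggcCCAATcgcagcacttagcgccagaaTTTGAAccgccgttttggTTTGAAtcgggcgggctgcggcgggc

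Top2a held 8 matches in 247 bases, Cdk1 5 in 228 and Mki67 5 in 136. In both Top2a and Cdk1 the CHR letters nearest the start stood within the last bases of the window, with CCAAT letters upstream of them.

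All 38 measured genes of DNA replication were lower in Villus, with a median log2 difference of −3.20. Uhrf1, which guides maintenance DNA methylation to newly copied DNA, had 8.6, 12.3 and 8.9 in Villus and 276.9, 341.1 and 238.4 in GFP_Low, a difference of −4.85 ± 0.61. Dnmt1, the maintenance methyltransferase itself, named after its values were seen, had 21.9, 28.0 and 18.8 in Villus against 238.9, 367.0 and 320.8 in GFP_Low, a difference of −3.75 ± 0.31. The Villus values of both genes lay above the receptor level and well below every GFP_Low array. Rrm2, the subunit of ribonucleotide reductase that dividing cells need to make deoxynucleotides, fell by 4.48 ± 0.20 on the log2 scale, and Pold2, a subunit of DNA polymerase delta, by 4.47 ± 0.39. Pola1, the catalytic subunit of the polymerase that primes new strands, was at least 13.5-fold lower.

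The factor E2F, a regulator of S-phase genes, binds letters searched here as TTTGGCGC and TTTCGCGC on either strand, which can overlap each other in a longer site. Of 40 windows of 250 bases, for 32 of the 38 genes, 7 (17.5%) held them, against 0.654% of all windows. They also stood in 1 of 30 mitosis windows (3.33%), that of Cdk1. No window of the brush border, solute carrier or fat uptake genes described below held them. With 150 bases the DNA replication share was 12.5% against 0.423%. The 3 members with the largest differences whose window held the letters are shown with the matches in capitals, from chr17:56304108-56304207, plus strand (Uhrf1), chrX:93632214-93632313, minus strand (Pola1) and chr8:75109336-75109435, plus strand (Mcm5, a subunit of the replicative helicase that was at least 13.3-fold lower in Villus).
Uhrf1: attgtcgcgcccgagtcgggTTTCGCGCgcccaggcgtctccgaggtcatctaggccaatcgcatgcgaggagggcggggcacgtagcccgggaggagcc
Pola1: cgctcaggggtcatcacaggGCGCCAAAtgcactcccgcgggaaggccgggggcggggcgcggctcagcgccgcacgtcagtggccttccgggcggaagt
Mcm5: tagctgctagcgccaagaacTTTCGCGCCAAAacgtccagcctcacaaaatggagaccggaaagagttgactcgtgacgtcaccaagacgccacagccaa

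Mcm5 held 2 overlapping matches, and Uhrf1 and Pola1 held 1 each.

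Of 20 measured regulators of the G1 phase, 11 (55%, against 21.3% of all genes) were lower, 5 (25%, against 20.8%) higher and 4 not called. The share on the higher side lies near that of all genes, so on that side only single members are described. Ccnd1, the cyclin D1 that starts the cell cycle, had 10.4, 20.5 and 17.6 in Villus and 608.5, 403.1 and 457.7 in GFP_Low, a difference of −4.96 ± 0.39. Its partner kinases Cdk6 and Cdk4 fell by 3.64 ± 0.25 and 3.15 ± 0.28 on the log2 scale. Ccnd2, cyclin D2, fell by 2.89 ± 0.25 but kept intensities of 172.8 to 200.5 in Villus, against 1095 to 1676 in GFP_Low. On the higher side stood Mxd1, a repressor that competes with Myc for its partner Max, with 1336, 1402 and 1221 in Villus against 39.6, 64.9 and 89.5 in GFP_Low, a difference of 4.43 ± 0.28 (adjusted p = 1.7e-08). Myc ran the other way, with 20, 12.4 and 8.1 in Villus and 106.5, 180.6 and 136.3 in GFP_Low. The arrays of the 2 groups did not overlap for Mxd1 or for Myc. Cdkn1a, the CDK inhibitor p21, was higher by 1.38 ± 0.36 on the log2 scale, and Rbl2, the pocket protein p130 of resting cells, by 1.31 ± 0.30.

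Genes that build ribosomes, whose output serves growing cells, were low in Villus as well: 23 of 24 measured were lower and 1 was not called, with a median log2 difference of −3.08. Fbl, the fibrillarin that methylates ribosomal RNA, had 41.0, 56.1 and 47.2 in Villus and 962.4, 1023 and 866.8 in GFP_Low, a difference of −4.31 ± 0.15. Gar1, Dkc1 and Nhp2, 3 proteins of the particle that makes pseudouridine in ribosomal RNA, fell by 4.73 ± 0.16, 4.64 ± 0.31 and 4.43 ± 0.29. Of 33 measured subunits of the respiratory chain, 28 were not called, 4 were lower and 1 was higher, and the values lay between −0.90 and 0.94 on the log2 scale. With arrays centred on their medians 7 were higher and 1 was lower.

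Genes of the crypt base and of Wnt signalling, which keeps crypt cells dividing, were mostly lower. Of 21 measured, 15 (71.4%, against 21.3% of all genes) were lower, 2 (9.52%, against 20.8%) higher and 4 not called. Olfm4, a secreted glycoprotein of stem cells, had 28.7, 100.5 and 96.9 in Villus and 3352, 2481 and 2298 in GFP_Low, a difference of −5.35 ± 0.37, or −4.76 without Villus 1. Slc12a2, the basolateral transporter that loads crypt cells with chloride for secretion, had 50.6, 67.9 and 51.3 in Villus against 2645, 2091 and 1669 in GFP_Low. Kcne3, a potassium channel subunit that serves the same secretion, had 11.5, 17.3 and 15.4 in Villus and 859.7, 539.1 and 653.8 in GFP_Low. Both secretory transport genes were among the 15 largest differences on the lower side, with Villus arrays above the receptor level. Aqp4, a water channel of the crypt, was at least 17.7-fold lower. Sp5, a transcriptional target of Wnt, was the exception among the larger differences, with 175.9, 144.9 and 122.6 in Villus against 18.1, 22.3 and 19.1 in GFP_Low, higher by 2.89 ± 0.17 (adjusted p = 1.2e-08). The other member called higher, Notum, which removes the lipid from Wnt proteins, had 9.3, 9.7 and 8.0 in Villus and 7.3, 6.2 and 5.6 in GFP_Low, values next to the receptor level, and its call was lost in 4 of the 6 fits without 1 array.

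**Figure D3:**
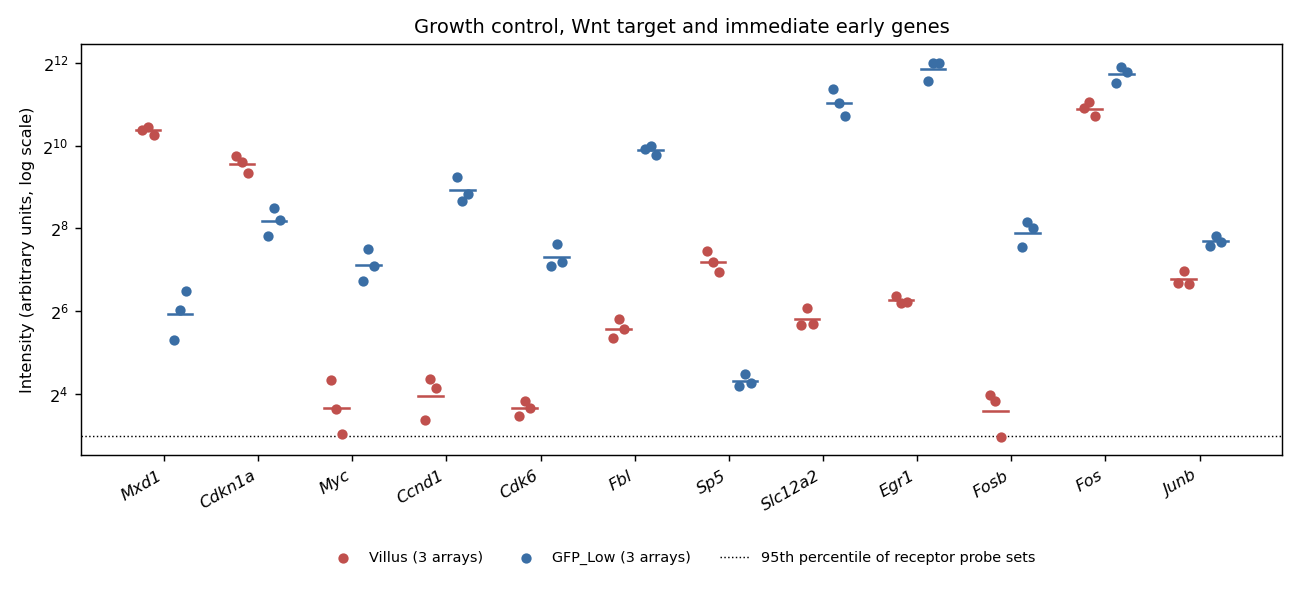
Intensity (log scale) of 12 genes of growth control, Wnt signalling, ion secretion and the immediate early response in each Villus array (red, left of each pair) and GFP_Low array (blue, right), with a bar at the mean of the log2 values and a dotted line at the receptor level of 7.9. Mxd1, Cdkn1a and Sp5 are higher in Villus, and Egr1 shows 82.9, 73.0 and 74.2 in Villus against 3004 to 4100 in GFP_Low.

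Paneth cell genes showed the largest differences on the lower side, although only 8 of 18 listed genes were measured. Paneth cells secrete antimicrobial peptides at the crypt base. Defa21, an alpha-defensin, had 5.5, 7.3 and 5.5 in Villus and 1739, 2575 and 2945 in GFP_Low, and was at least 299-fold lower (adjusted p = 3.44e-11). Mmp7, the protease that activates defensins in the mouse, had 13.4, 17.6 and 14.8 in Villus against 1138, 720.2 and 1233 in GFP_Low. Lyz2, a lysozyme also made by macrophages, had 193.6, 220.5 and 481.7 in Villus and 7589, 8489 and 12665 in GFP_Low. In all, 6 of the 8 were lower and 2 were not called, and the summed intensity of the list was 545.7 to 798.2 in Villus and 14707 to 25500 in GFP_Low. Alpha-defensins are near-identical to each other, so their probe sets may read several copies. GFP_Low was sorted for dim GFP and not against Paneth cells, and whether such cells or free granule RNA gave these intensities was not tested.

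Goblet cells, which secrete mucus, are made in the crypt and persist on the villus. Of 22 measured goblet genes, 14 were lower, 1 was higher and 7 were not called, with a median of −1.32. Spdef, a transcription factor of goblet cell maturation, had 40.8, 33.5 and 38.6 in Villus and 148.6, 162.3 and 158.6 in GFP_Low, lower by 2.06 ± 0.23 on the log2 scale. Agr2, which folds mucins in the endoplasmic reticulum, fell by 1.99 ± 0.21 and Spink4, a secreted peptide of goblet cells, by 2.94 ± 0.21. Ccl9, a chemokine, had 26.3, 23.2 and 29.1 in Villus against 749.3, 1061 and 829.6 in GFP_Low. Clca1, a protease of the mucus, was the member called higher, with 4061, 3684 and 3711 in Villus and 1520, 1812 and 2224 in GFP_Low. Neither of 2 secreted products named after their values were seen was called. Tff3, the trefoil peptide, had 6105, 5509 and 6032 in Villus and 5830, 7477 and 6982 in GFP_Low (−0.20 ± 0.27). Zg16, a lectin of the mucus, had 9315, 9402 and 8344 in Villus and 6215, 6066 and 6632 in GFP_Low (0.52 ± 0.26, adjusted p = 0.128).

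Enteroendocrine cells, which release gut hormones, were covered by a list of lineage factors and a list of products. Of 18 measured factors of the precursors, 13 were lower, 1 was higher and 4 were not called. The median was −0.90, or −0.53 with 10 genes at their bound. Next to Neurog3, described above, Nkx2-2 and Insm1, which act downstream of it, were at least 4.01-fold and 4.50-fold lower in Villus, and Isl1, a factor of hormone-producing cells, had 12.7, 11 and 10.4 in Villus and 58.5, 38.1 and 48.2 in GFP_Low. Pdx1, which also marks enterocytes of the proximal intestine, was higher, with 121.9, 185.1 and 90.9 in Villus against 29.7, 30.8 and 48.0 in GFP_Low.

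Of 26 measured hormones and granule proteins, 6 (23.1%) were higher, 7 (26.9%) lower and 13 not called, shares near the 20.8% and 21.3% of all genes, so the counts say nothing particular to these genes and single members are described. Enteroendocrine cells of the mouse are known to change the hormones they make as they move from crypt to villus. Tac1, the precursor of substance P, had 29.6, 34.9 and 18.3 in Villus and 941.3, 757.7 and 1111 in GFP_Low, a difference of −5.12 ± 0.29. Gcg, the precursor of glucagon-like peptides, had 63.3, 73.7 and 35.2 in Villus against 730.9, 418.0 and 673.3 in GFP_Low. Ghrl, which encodes ghrelin, had 93.8, 75.2 and 58.5 in Villus and 275.3, 279.1 and 296.7 in GFP_Low. These 3 hormones were lower in every Villus array. Nts, which encodes neurotensin, ran the other way with 768.8, 712.4 and 446.3 in Villus and 28.8, 75.3 and 27.1 in GFP_Low, a difference of 4.01 ± 0.35. Pyy, which encodes peptide YY, had 33.3, 45.8 and 32.6 in Villus against 8.0, 11.5 and 11 in GFP_Low. Sct, which encodes secretin and was named after its values were seen, had 741.4, 636.7 and 520.0 in Villus and 162.7, 355.0 and 239.2 in GFP_Low, higher by 1.38 ± 0.27 (adjusted p = 0.000836). The granule proteins Chga and Chgb, general markers of these cells, fell by 1.62 ± 0.31 and 1.53 ± 0.24 on the log2 scale, a smaller difference than that of Tac1 or Gcg. Ddc, the decarboxylase that makes serotonin and dopamine and is also found in enterocytes, was higher by 1.56 ± 0.19.

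**Figure D4:**
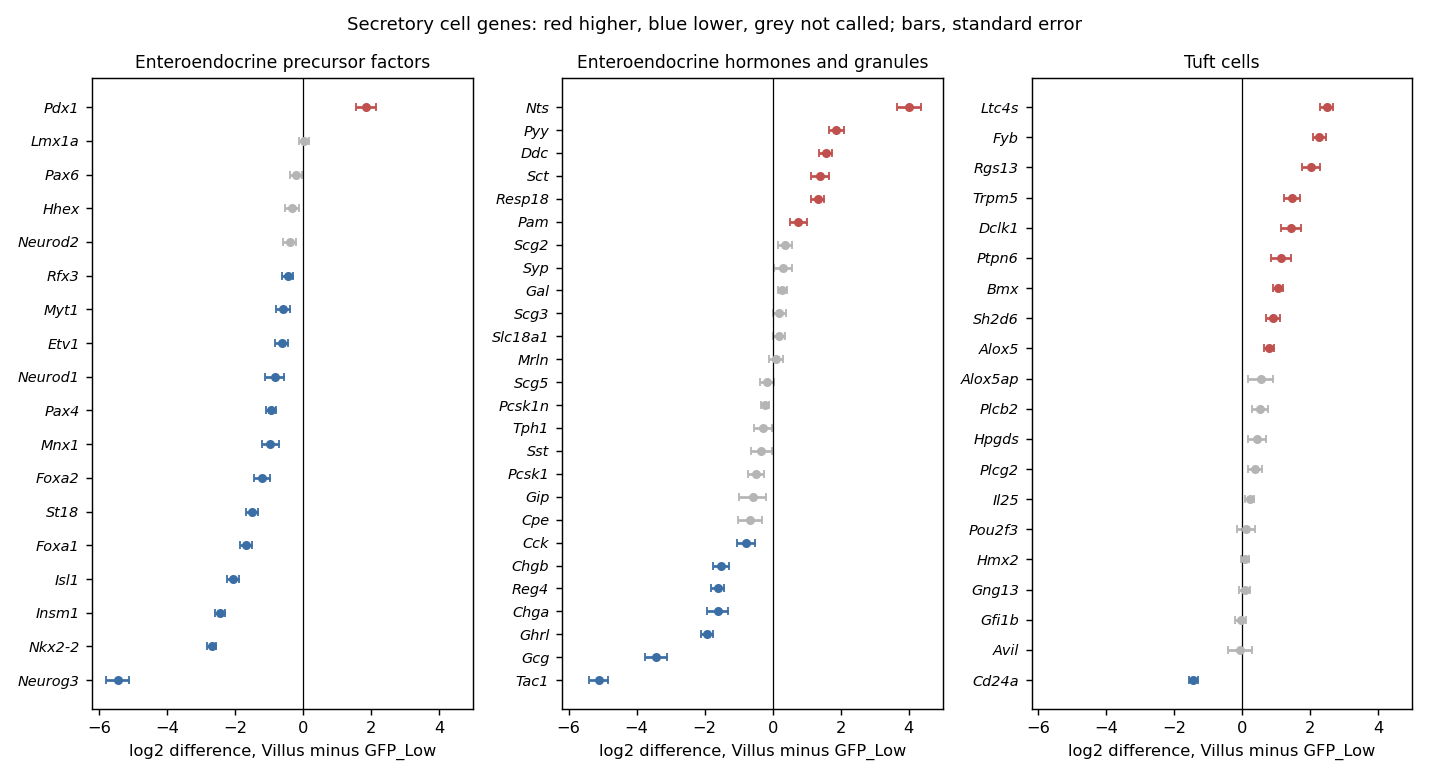
Log2 difference, Villus minus GFP_Low, with its standard error, of 18 enteroendocrine precursor factors, 26 enteroendocrine hormones and granule proteins and 20 tuft cell genes (red higher, blue lower, grey not called). Neurog3 lies lowest among the factors, the hormones run between Tac1 at −5.12 and Nts at 4.01, and 9 tuft cell genes are called higher.

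Of 20 measured genes of tuft cells, chemosensory cells of the epithelium, 9 (45%, against 20.8% of all genes) were higher. Of the others, 1 (5%, against 21.3%) was lower and 10 were not called. The median was 0.53, or 0.40 with 2 genes at their bound. In either group 14 of the 20 passed the receptor level. Trpm5, a cation channel of the taste-like signalling of tuft cells, had 45.2, 49.6 and 26.7 in Villus. It had 13.9, 17.1 and 12.1 in GFP_Low, and was higher by 1.46 ± 0.24. Dclk1, a kinase used as a tuft cell marker, had 39.5, 30.9 and 43.0 in Villus against 19.0, 17.5 and 8.0 in GFP_Low by the probe set read here. Another of its 8 probe sets was called as well, at 1.31 on the log2 scale. The rest were not called, at −0.25 to 0.25, with group means near or below the receptor level. Rgs13, a regulator of G protein signalling, and Ltc4s, the leukotriene C4 synthase, were higher by 2.02 ± 0.27 and 2.47 ± 0.20. Pou2f3, the factor that specifies tuft cells, named after its values were seen, lay below the receptor level in all 6 arrays. Ptpn6 and Fyb, which are also genes of white blood cells, were 2 of the 9 higher members. Genes of intraepithelial lymphocytes were higher in Villus as described below. The lower member was Cd24a, a surface protein shared with Paneth and enteroendocrine cells, at −1.44 ± 0.13.

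Genes of the absorptive surface were high in Villus. Of 17 measured digestive enzymes of the brush border, 15 were higher, 1 was lower and 1 was not called, with a median log2 difference of 3.72. Treh, the trehalase that splits the sugar trehalose, had 775.4, 955.2 and 956.1 in Villus and 7.7, 13.7 and 15.2 in GFP_Low, a difference of 6.25 ± 0.22. Tmprss15, the enteropeptidase that activates pancreatic trypsinogen, was at least 28.5-fold higher, and Ace, a peptidase that removes dipeptides, at least 22.9-fold. Mme, the neutral endopeptidase neprilysin, had 613.8, 692.6 and 852.9 in Villus against 10.1, 15.2 and 26.3 in GFP_Low. Alpi, the intestinal alkaline phosphatase, had 6804, 7291 and 7127 in Villus and 583.5, 1020 and 1240 in GFP_Low, so that it was already well above the receptor level in GFP_Low. The member called lower, Alppl2, another alkaline phosphatase, stayed near the receptor level, with 4.9, 6.5 and 6.7 in Villus and 9.1, 9.1 and 11.7 in GFP_Low.

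Letters bound by HNF4, a nuclear receptor of enterocyte genes, were searched as CAAAGTCCA on either strand. They stood in 2 of 19 windows (10.5%) of the brush border enzymes, in 1 of 29 (3.45%) of the solute carriers and in 0 of 23 of the fat uptake genes, against 0.384% of all windows. These 3 windows are few, and the letters of the enterocyte genes are shown beside those of the cell cycle genes above, with the match in capitals, from chr9:44673133-44673232, plus strand (Treh), chr1:87101607-87101706, minus strand (Alpi) and chr17:85028247-85028346, plus strand (Slc3a1, the heavy chain of the cystine transporter, which had 1139, 1181 and 1221 in Villus and 134.1, 138.9 and 126.3 in GFP_Low).
Treh: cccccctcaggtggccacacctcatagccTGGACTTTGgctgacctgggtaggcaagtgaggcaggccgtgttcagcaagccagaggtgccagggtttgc
Alpi: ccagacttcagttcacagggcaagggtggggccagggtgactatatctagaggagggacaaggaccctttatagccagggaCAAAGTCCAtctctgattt
Slc3a1: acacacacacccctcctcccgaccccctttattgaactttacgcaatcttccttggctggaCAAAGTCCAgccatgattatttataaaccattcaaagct

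TATAAA letters stood in 31.6% of the brush border enzyme windows, 13.8% of those of the solute carriers and 21.7% of those of fat uptake genes, against 3.33% of mitosis windows, 7.50% of DNA replication windows and 12.4% of all windows.

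Of 27 measured solute carriers of the enterocyte, 26 were higher in Villus and 1 was lower, with a median of 3.26. Slc5a12, which takes up lactate with sodium, had 734.8, 756.3 and 916.8 in Villus and 3.5, 4.1 and 4.5 in GFP_Low, a difference of at least 101-fold (adjusted p = 3.22e-13). Slc34a2, the sodium phosphate transporter, had 624.0, 1226 and 1169 in Villus against 6.4, 15.1 and 7.4 in GFP_Low. Slc15a1, which carries dipeptides, had 1017, 1005 and 869.2 in Villus and 10.5, 15.6 and 17.2 in GFP_Low. All 3 were at or near the receptor level in GFP_Low. Slc6a19, the carrier of neutral amino acids, was higher by 5.90 ± 0.26 on the log2 scale, and Slc23a1, a vitamin C transporter, was at least 37.5-fold higher. Slc1a1, a glutamate carrier, was the lower member, with 33.3, 35.0 and 32.3 in Villus and 175.2, 200.7 and 263.1 in GFP_Low.

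Fat uptake and the packing of fat into chylomicrons, the lipoproteins of the gut, gave 24 higher and 2 not called of 26 measured genes, with a median of 3.04. Cd36, a fatty acid receptor, had 460.3, 538.1 and 731.0 in Villus and 8.2, 9.3 and 14 in GFP_Low, a difference of 5.79 ± 0.20. Apob, the structural protein of chylomicrons, had 368.6, 331.1 and 426.0 in Villus against 10.9, 15.2 and 7.5 in GFP_Low. Apoc2, which activates lipoprotein lipase, had 6466, 6178 and 6155 in Villus and 27.5, 204.2 and 122.9 in GFP_Low, where GFP_Low 1 stood below the others. Its log2 difference was 6.15, or 5.31 without GFP_Low 1 and 6.75 without GFP_Low 2. Apoc3, an inhibitor of lipolysis, had 10354, 9730 and 9635 in Villus against 259.3, 296.9 and 295.1 in GFP_Low. Of 25 genes of fatty acid oxidation and ketone bodies, 14 (56%, against 20.8% of all genes) were higher. Another 2 (8%, against 21.3%) were lower and 9 were not called. Acaa1b and Ehhadh, 2 enzymes of the peroxisome, were higher by 4.87 ± 0.52 and 2.5 ± 0.27, and Acaa1b by 4.10 without GFP_Low 1 and 5.48 without GFP_Low 2. By contrast, Cpt1a, which admits fatty acids to mitochondria, had 256.5, 328.7 and 345.5 in Villus and 549.1, 581.7 and 417.0 in GFP_Low, a call (−0.73 ± 0.23, adjusted p = 0.0174) that was lost when arrays were centred on their medians (adjusted p = 0.0859) and without Villus 1, GFP_Low 1 or GFP_Low 2 (adjusted p = 0.0527 to 0.0792).

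The cytoskeleton of microvilli gave 22 higher, 2 lower and 2 not called of 26 measured genes. Pdzk1, a scaffold that holds transporters at the brush border, had 961.6, 1064 and 1125 in Villus and 6.1, 7.2 and 13.7 in GFP_Low, a difference of 6.96 ± 0.25. Pls1, an actin-bundling protein of the microvillus core, had 3707, 3442 and 3410 in Villus against 499.7, 294.7 and 559.3 in GFP_Low. Cdhr5, a cadherin that links microvilli at their tips, was higher by 3.20 ± 0.13. The 2 lower members were Krt19 and Krt18, keratins of simple epithelia. Krt19 had 782.4, 860.7 and 922.2 in Villus and 4084, 4839 and 4618 in GFP_Low, and Krt18 fell by 1.72 ± 0.18 on the log2 scale.

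Genes known from the villus tip held several of the largest differences on the higher side. Of 21 measured, 16 were higher, 2 lower and 3 not called, with a median of 2.87. Clca4a, a member of the family first described as chloride channel regulators, had 3455, 3333 and 2754 in Villus and 6.7, 6.4 and 6.1 in GFP_Low, and its difference of at least 401-fold (adjusted p = 3.22e-13) was the largest on the higher side among all genes. Pmp22, a membrane protein of cell junctions, had 1250, 1047 and 1031 in Villus against 3.8, 5.5 and 4.7 in GFP_Low, at least 140-fold higher. Both genes were below the receptor level in every GFP_Low array. The list also held 4 genes of purine handling at the cell surface or in the cell: Enpp3, given above, Nt5e, which makes adenosine from AMP, Slc28a2, which takes up purine nucleosides, and Ada, which turns adenosine into inosine. Ada had 7255, 6971 and 6317 in Villus and 28.3, 48.3 and 32.4 in GFP_Low, a difference of 7.59 ± 0.30. Nt5e had 929.2, 989.5 and 858.1 in Villus against 6.1, 8.0 and 5.7 in GFP_Low, at least 117-fold higher. Slc28a2 had 2650, 2475 and 2041 in Villus and 13.7, 113.2 and 7.0 in GFP_Low, where GFP_Low 2 stood apart. The fold without GFP_Low 2 was larger, at a log2 difference of 7.92 in place of 6.75, and without GFP_Low 3 it was 5.91. Fos and Junb, the 2 lower members, belong to the immediate early genes taken up below.

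Of 30 measured transcription factors of the enterocyte, 15 (50%, against 20.8% of all genes) were higher, or 13 to 17 without 1 array. Another 4 (13.3%, against 21.3%) were lower and 11 were not called, and the median of the list was 0.55. Prdm1, the repressor Blimp1 known from the fetal to adult transition of the gut, had 123.3, 137.0 and 103.6 in Villus and 6.1, 9.2 and 6.9 in GFP_Low, at least 15.3-fold higher. Maf, a factor of mature enterocytes, had 77.8, 98.7 and 86.5 in Villus against 7.7, 25.6 and 12.1 in GFP_Low. Klf4, which is tied to cell cycle exit, and Hnf4g, a paralogue of HNF4A, were higher by 1.94 ± 0.34 and 1.51 ± 0.24. Sox4, a factor of progenitors, had 48.3, 44.9 and 29.8 in Villus and 662.8, 622.6 and 538.5 in GFP_Low, and Hes1, the effector of Notch signalling, fell by 2.45 ± 0.39 on the log2 scale.

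Of 18 measured secreted antimicrobial lectins and other genes known from the lower villus, 7 (38.9%, against 20.8% of all genes) were higher. Another 3 (16.7%, against 21.3%) were lower and 8 were not called. The median was 0.42, or 0.14 with 5 genes at their bound. Reg3a had 436.8, 444.1 and 503.6 in Villus and 32.0, 53.3 and 73.6 in GFP_Low, a difference of 3.20 ± 0.22. Reg3g, which acts on Gram-positive bacteria, had 3988, 5472 and 3204 in Villus against 839.9, 1571 and 527.5 in GFP_Low. Reg3b had 6919, 7458 and 7415 in Villus and 2605, 4396 and 2411 in GFP_Low, and its call (adjusted p = 0.0345) was lost in 5 of the 6 fits without 1 array. Pigr, the receptor that carries antibodies across the epithelium, was higher by 0.70 ± 0.17. Gsdmc2, a gasdermin, and Retnlb, a goblet cell peptide known to rise in worm infection, were 2 of the 3 lower members, with GFP_Low 2 apart: Gsdmc2 had 4.9, 4.5 and 3.4 in Villus and 19.5, 129.2 and 17.5 in GFP_Low, and Retnlb had 5.3, 4.7 and 4.8 in Villus and 9.2, 37.9 and 7.1 in GFP_Low. Gsdmc2 was at least 4.48-fold lower, or at least 2.34-fold without GFP_Low 2. Retnlb was at least 1.71-fold lower, or at least 1.02-fold without GFP_Low 2. The Retnlb call was lost with the 6 arrays alone (adjusted p = 0.068), with an offset of 16 (0.0764) and with the methods' t-test (unadjusted p = 0.125, adjusted p = 0.233), and the Gsdmc2 call with that test (adjusted p = 0.0848).

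Genes of antigen presentation gave 15 higher (71.4%, against 20.8% of all genes) and 6 not called of 21 measured. By the probe sets read here, the class II members depended on GFP_Low 2. H2-Aa, a class II chain, had 2970, 4594 and 2617 in Villus and 630.3, 13.7 and 782.4 in GFP_Low. H2-Ab1 had 1218, 2342 and 1853 in Villus and 253.5, 25.7 and 394.9 in GFP_Low. H2-Eb1, named after its values were seen, had 866.5, 1370 and 1036 in Villus and 228.7, 12.5 and 319.9 in GFP_Low. Every Villus array lay above every GFP_Low array for these 3 genes, yet GFP_Low 2 lay near the receptor level and the other GFP_Low arrays did not. H2-Aa and H2-Ab1 were called (4.12 ± 1.53, adjusted p = 0.0441, and 3.67 ± 1.30, adjusted p = 0.0354), and both calls were lost without GFP_Low 2 (2.23, adjusted p = 0.214, and 2.46, adjusted p = 0.164), where the pooled spread still included GFP_High 3 from the same sort. That array, of bright GFP cells with the same sort code in its title, had 43.3 for H2-Aa, 24.6 for H2-Ab1 and 19.5 for H2-Eb1, while GFP_High 1, 2 and 4 had 1126 to 1563, 593.8 to 845.6 and 693.2 to 936.9. Without any of the 3 Villus arrays, too, the H2-Aa and H2-Ab1 calls were lost (adjusted p = 0.0578 to 0.110). With limma over every probe set, other H2-Aa probe sets were called at 3.95 ± 0.72 (adjusted p = 0.000491) and 3.97 ± 1.28 (0.0248). For H2-Ab1 another was called at 3.34 ± 1.17 (0.0363), and a further one at 3.28 ± 1.32 was not (0.0667). These probe sets were not followed without 1 array. Ciita, the activator of class II genes, was at least 5.98-fold higher, and was called in all 6 fits without 1 array, though not with the methods' t-test (adjusted p = 0.0513). H2-Q1, a class I gene, had 1975, 2170 and 1652 in Villus and 198.1, 261.6 and 303.6 in GFP_Low. Irf7, a factor of the interferon response, had 164.2, 255.3 and 182.4 in Villus and 17.2, 24.7 and 17.9 in GFP_Low. In neither gene did GFP_Low 2 lie below the other GFP_Low arrays. Ifit1, an interferon-induced protein that binds foreign RNA, was at least 96.4-fold higher and was among the 15 largest differences on the higher side.

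Enzymes that act on foreign compounds gave 26 higher and 3 not called of 29 measured, with a median of 2.35. Cyp3a11, the main cytochrome P450 of the mouse gut, had 7599, 8486 and 6584 in Villus and 90.0, 29.1 and 156.0 in GFP_Low, a difference of 6.66 ± 0.44. Cyp2b10, a target of the receptor CAR, had 2217, 2617 and 2042 in Villus against 23.3, 8.6 and 44.0 in GFP_Low. Both were lowest in GFP_Low 2, the array with the higher Slc28a2, and without it their log2 differences were 5.99 and 6.15, in place of 6.66 and 6.79. Cyp2c55, Cyp3a25 and Cyp3a13 were higher by 5.63 ± 0.26, 5.04 ± 0.26 and 4.44 ± 0.35.

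Villus also carried RNA of cells that are not epithelium. Intraepithelial lymphocytes are T cells that lie between enterocytes. Of 24 measured genes of these cells, 20 were higher in Villus and 4 were not called, and their summed intensity was 3543, 3442 and 2380 in Villus 1 to 3 against 160.2, 132.9 and 154.6 in GFP_Low 1 to 3. Gzma, granzyme A of killer cells, had 1130, 1104 and 822.4 in Villus and 6.0, 4.5 and 8.1 in GFP_Low, at least 128-fold higher. Gzmb, granzyme B, had 752.3, 906.2 and 620.1 in Villus against 7.2, 6.0 and 6.8 in GFP_Low. Ptprc, the common leukocyte protein CD45, had 188.2, 166.7 and 113.1 in Villus and 4.3, 4.4 and 3.6 in GFP_Low, and Cd3g, of the T cell receptor complex, was at least 13.8-fold higher. All 4 genes were lowest in Villus 3 among the Villus arrays, and none had a GFP_Low mean above the receptor level. Gzma and Gzmb stood among the 15 genes with the largest differences on the higher side, so that list mixed epithelial and lymphocyte genes.

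Of 18 genes of other white blood cells, 4 (22.2%) were higher, 3 (16.7%) lower and 11 not called. These shares lie near the 20.8% and 21.3% of all genes, so the counts say nothing particular to these genes. In either group 8 of the 18 passed the receptor level. Jchain, the joining chain of secreted antibodies from plasma cells, had 95.5, 168.1 and 28.3 in Villus and 4.0, 4.5 and 5.5 in GFP_Low. It was at least 9.74-fold higher, with Villus 3 the lowest Villus array. The bound was 16.1-fold without Villus 3, 8.74-fold without Villus 1 and 6.59-fold without Villus 2. The 3 lower members were Lyz2, shared with Paneth cells, Kit and Cd68. Of 20 genes of mesenchyme, endothelium, muscle and blood, 5 (25%) were higher, 1 (5%) lower and 14 not called. The share on the higher side lies near the 20.8% of all genes, and that on the lower side below their 21.3%. The count of higher members was 1 without Villus 2, 2 without Villus 1, GFP_Low 1 or GFP_Low 3, and 7 without Villus 3, and 0 with the methods' t-test at either threshold. The summed intensity of that list was 572.9, 558.2 and 174.0 in Villus 1 to 3 and 313.4, 359.9 and 260.4 in GFP_Low 1 to 3. Acta2, the actin of smooth muscle, had 141.8, 203.6 and 13 in Villus and 7.4, 28.6 and 8.3 in GFP_Low, and its call (adjusted p = 0.0490) was lost in 4 of the 6 fits without 1 array, among them those without Villus 1 or Villus 2 (adjusted p = 0.168 and 0.199). Vim, vimentin, was the lower member, with 51.0, 52.6 and 21.0 in Villus and 185.1, 90.8 and 137.8 in GFP_Low, and its call was lost without Villus 3 (adjusted p = 0.0682) or GFP_Low 1 (0.0527). How far lymphocytes or muscle cells contributed to the other lists was not tested.

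Sex-linked genes divided the arrays within both groups. Xist, the RNA of the inactive X chromosome, had 12.4, 8.6 and 1136 in Villus 1 to 3 and 16.5, 2217 and 2515 in GFP_Low 1 to 3. Eif2s3y, on the Y chromosome, had 300.7, 246.5 and 8.4 in Villus and 134.6, 4.5 and 4.3 in GFP_Low. Villus 1, Villus 2 and GFP_Low 1 thus had a male pattern and Villus 3, GFP_Low 2 and GFP_Low 3 a female one, and none of the 4 measured genes was called. With this pattern as a term among the 10 intestinal arrays, 7311 genes were called, against 7202 without it. Acta2 was high in Villus 1 and Villus 2, the Villus arrays with the male pattern, but in GFP_Low it had 7.4 in the male-pattern array and 28.6 and 8.3 in the female-pattern arrays, and with this term its difference was 2.41 in place of 2.58 (adjusted p = 0.115).

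**Figure D5:**
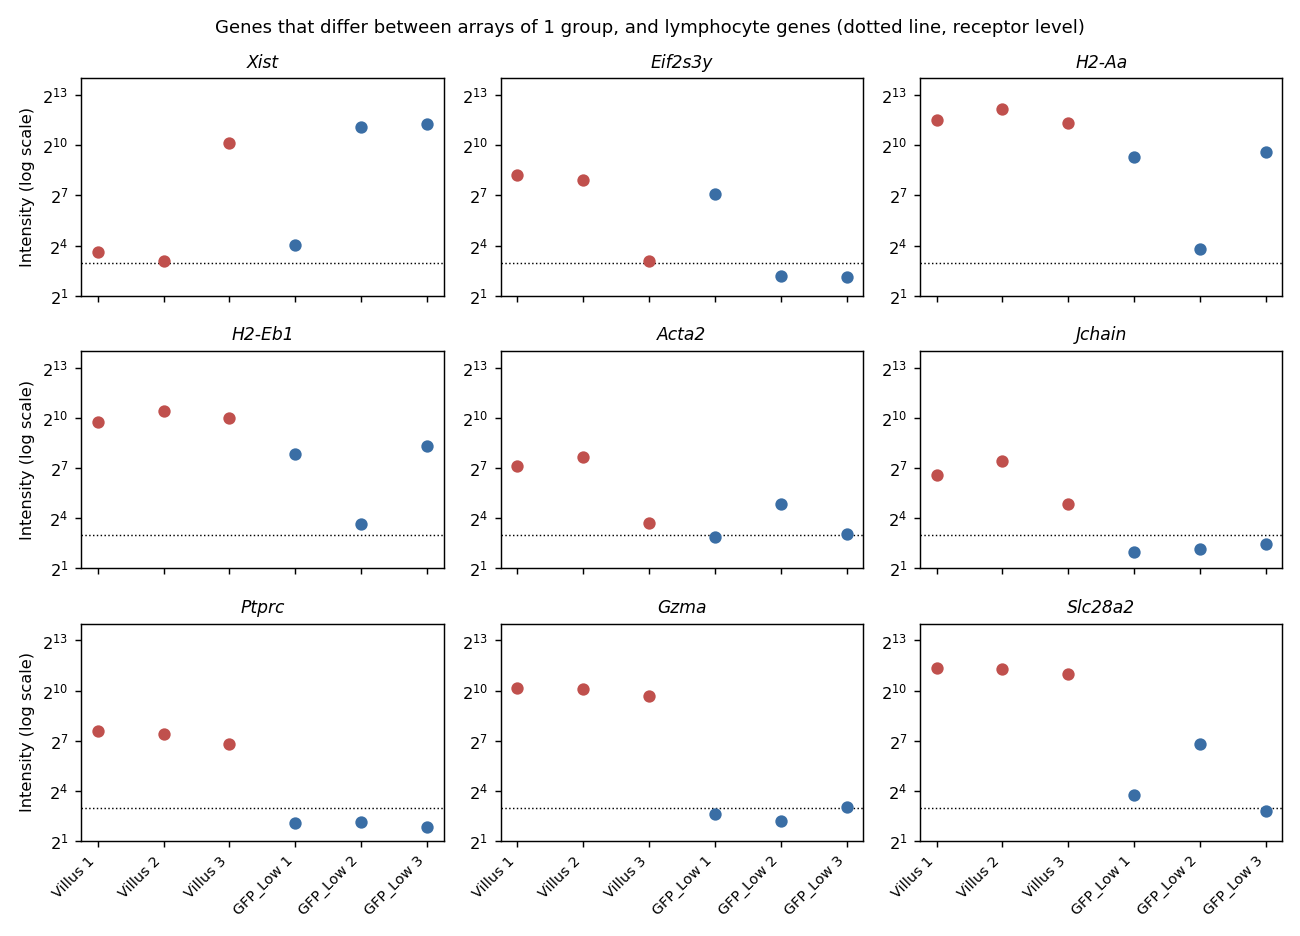
Intensity (log scale) of 9 genes in Villus 1 to 3 (red, left) and GFP_Low 1 to 3 (blue, right), with a dotted line at the receptor level of 7.9. Xist and Eif2s3y mirror each other, H2-Aa and H2-Eb1 dip in GFP_Low 2, Acta2 and Jchain are lowest in Villus 3 among the Villus arrays, and Ptprc and Gzma are high in Villus alone.

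Genes of the immediate early and heat shock responses, which cells switch on within minutes of a growth signal or of handling, were mostly lower in Villus: 17 of 22 measured were lower, 1 was higher and 4 were not called, with a median of −2.09. Egr1 had 82.9, 73.0 and 74.2 in Villus and 3004, 4045 and 4100 in GFP_Low, a difference of −5.59 ± 0.27 (adjusted p = 1.66e-09), and was among the 15 largest on the lower side. Fosb had 15.7, 14.2 and 7.8 in Villus against 185.6, 283.6 and 257.5 in GFP_Low, and Egr2 was at least 13.7-fold lower. Fos had 1929, 2124 and 1682 in Villus and 2904, 3831 and 3527 in GFP_Low, a difference of −0.84 ± 0.19, far smaller than that of its relative Fosb. Hspa1b, the inducible heat shock protein HSP70, had 96.1, 352.9 and 64.9 in Villus and 1312, 1273 and 1339 in GFP_Low, a difference of −3.33, or −4.05 without Villus 2. GFP_Low cells passed through trypsin and sorting, and the isolation and the cell type cannot be told apart in these genes.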

How the data were processed

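Total RNA of 3 Villus and 3 GFP_Low samples, counted as biological replicates in the study's methods, was hybridised to Affymetrix HT MG-430 PM arrays, as part of 13 arrays. Per the labels and the study's methods, the authors made the deposited linear intensity values with Affymetrix Power Tools (version not given in the sources used here) by RMA-sketch, which subtracts background, normalizes quantiles and summarizes the probes of each probe set. The depth of an array has no count, and the number of arrays limits the precision.

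Here log2 of the deposited intensity was tested with limma 3.58.1 in R 4.3.3, with a mean for each group over all 13 arrays, so that all groups shared 1 estimate of the spread, and Benjamini-Hochberg adjustment over 17097 genes. A gene was read by its probe set with the highest mean over all arrays. Of 45141 probe sets, 28898 carried 1 gene name in the platform annotation, 551 several and 15692 none. The contrast was Villus minus GFP_Low, called at an adjusted p under 0.05. In simulated data with 200 changed genes and independent normal noise, 73% were recovered at a log2 difference of 1 and 96.4% at 2, and 5.86% of calls were false. The simulation changed far fewer genes than the 42.1% called in the data, so these rates need not hold there.

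Genes were named by a rule: the 15 largest called differences in each direction without overlap, 6 markers, and in each of 29 lists up to 6 called members of the majority direction and 3 of the other. Of 736 list entries, 652 were measured. The members and lists were chosen with earlier results of these data known. Promoter windows came from RefSeq (GRCm38.p6), and motif genes are those with the largest differences that held the letters. Alternatives were other normalizations, filters, probe set rules, spread models, the methods' t-test and each array left out. A term for the sex pattern of the arrays was added after the data were seen. Replicates were compared for identical arrays and 0 were found. Plots used Python 3.11.15 and matplotlib 3.10.9.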

Additional observations from a re-analysis of the deposited data

Results flagged for a closer look

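GFP_High 3, an array of bright GFP cells that shares its sort with GFP_Low 2, stood apart from the other GFP_High arrays in the 3 class II genes H2-Aa, H2-Ab1 and H2-Eb1, by the gap to its nearest neighbour relative to the range of the group. H2-Aa had an intensity of 43.3 in GFP_High 3, against 1126 to 1563 in the other GFP_High arrays. H2-Ab1 had 24.6 there, against 593.8 to 845.6, and H2-Eb1 had 19.5, against 693.2 to 936.9. GFP_Low 2 was low in the same genes, as given above. Only 4 genes were tested in this way, and they were chosen with their values known. The usual rate of about 1 in 20 groups marked by chance therefore does not apply. The 3 genes are known to be regulated together, so they are not 3 separate observations. What set this sort apart was not tested.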

How the results depend on the processing

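With the methods' t-test at an unadjusted p under 0.01, 4795 genes were called, 2223 of them higher in Villus, against 7202 and 3558 with limma. After Benjamini-Hochberg adjustment that test called 5385 genes, 2524 higher and 2861 lower. An offset of 16 added before the logarithm left 958 genes at a log2 difference of 2 or more, 506 higher and 452 lower, against 1615, 772 and 843, since an offset shrinks differences of dim genes by construction. The enteroendocrine precursor factors had 8 lower members, against 13, with the t-test at either threshold and with GFP_Low 1 as the sole GFP_Low array, whose spread was then taken from the other groups, and up to 14 with other settings. After adjustment the t-test also did not call Rbl2, Notum, Dclk1, Alppl2, Cpt1a, H2-Aa, H2-Ab1, Acta2 and Vim. Without 1 array at a time, between 6570 and 6976 genes were called, 3162 to 3430 higher and 3250 to 3814 lower, and 1564 to 1650 at a log2 difference of 2 or more. Without 1 array the mesenchyme and muscle list gave 1 to 7 higher members against 5, and the respiratory chain 1 to 5 lower members against 4. No called gene that was named by the rule given above changed direction in any alternative. Genes that the text names outside that rule were not followed across the alternatives. No paired analysis was possible because the Villus titles carry no replicate or sort number that matches the GFP_Low arrays. With the sort code as a random block (correlation 0.148), 3559 genes were higher and 3655 lower, and with the sex pattern as a term, a choice made after seeing the data, 3678 and 3633. Genes at the receptor level have only bounds here, and list entries without a named probe set were not analysed.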

Other observations

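Of 16 measured genes of the circadian clock, which runs in most tissues, 6 (37.5%, against 20.8% of all genes) were higher in Villus, 1 (6.25%, against 21.3%) was lower and 9 were not called. Npas2, a partner of the clock protein Arntl, had intensities of 191.7, 222.3 and 223.5 in Villus and 17.8, 37.8 and 26.9 in GFP_Low, a log2 difference of 3.01 ± 0.28. Arntl itself was higher by 1.02 ± 0.25. Per3, a repressor of the clock, had 10.9, 9 and 7.2 in Villus against 28.5, 28.8 and 45.1 in GFP_Low by the probe set read here, while its 4 other probe sets were not called, with log2 differences of −0.13 to 0.12. The hour at which each mouse was killed was not given in the sources used here, so time of day and cell type cannot be told apart in these genes.

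Of 26 genes of cell death and shedding, 16 (61.5%, against 20.8% of all genes) were higher in Villus. Of the others, 1 (3.85%, against 21.3%) was lower and 9 were not called. Fas, a death receptor, had 188, 182.2 and 203.8 in Villus and 17.9, 16.8 and 20.4 in GFP_Low, a difference of 3.38 ± 0.19. Xaf1, an interferon-induced gene that opposes inhibitors of apoptosis, was higher by 2.62 ± 0.20, and Casp8, the caspase that acts below Fas, by 1.43 ± 0.14. The higher members included both sides of the pathway, since Bcl2l1, Mcl1 and Xiap, named after their values were seen, restrain cell death and were higher by 1.12 ± 0.15, 1.01 ± 0.20 and 1.23 ± 0.14. Ripk3, a kinase of necroptosis, was the lower member, with 53.1, 34.7 and 35.8 in Villus and 103.3, 105.5 and 78.5 in GFP_Low.

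Of 18 genes known from the proximal or distal small intestine, 11 (61.1%, against 20.8% of all genes) were higher. Of the others, 1 (5.56%, against 21.3%) was lower and 6 were not called. Cubn, a receptor for the vitamin B12 complex with intrinsic factor, had 1487, 1394 and 3357 in Villus against 6.4, 9.7 and 10.8 in GFP_Low, a difference of 7.77 ± 0.30 in which Villus 3 stood above the other Villus arrays. Slc40a1, the iron exporter of the proximal gut, had 1455, 1803 and 1998 in Villus and 131.9, 216.7 and 294.5 in GFP_Low. The ileal genes Fabp6, Slc10a2 and Fgf15, named after their values were seen, had no Villus array above 6.5 and no GFP_Low array above 8.

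Some of the largest differences belonged to none of these lists. Dnase1, a secreted nuclease that digests DNA, had 3093, 4519 and 4434 in Villus and 15.1, 17.2 and 29.9 in GFP_Low, a difference of 7.64 ± 0.32. Sprr2a1, a small proline-rich protein of barrier epithelia, had 6593, 7463 and 7208 in Villus against 33.9, 86.1 and 74.4 in GFP_Low. On the lower side, Csrp2, a LIM domain protein, had 10.7, 10.6 and 11.2 in Villus and 469.1, 728 and 596.4 in GFP_Low, with the narrowest Villus values of the 3 genes.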
